A study of Homo sapiens with 3 samples.

Results

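Transcripts of 6 transmembrane mucin genes, MUC16, MUC1, MUC4, MUC15, MUC20 and MUC21, were examined in RWPE1 cells that differ in OLFM4, which encodes the secreted glycoprotein olfactomedin 4. The genes were picked by name, with MUC16 put forward for its large drop in the knockout library, and all 6 were found by Ensembl identifier among the 58037 genes counted. Of the 6, 5 had a count in any of the 3 libraries, 4 passed a floor of 3 counts in at least 1 library, and 3 passed it in each library. RWPE1 is an immortalized line from normal adult human prostate epithelium, grown here in prostate epithelial medium with no treatment named in the labels. One library was made from OLFM4-wild cells. Another was made from OLFM4-knockout cells, obtained with a CRISPR/Cas9 double nickase and a repair plasmid. The last was made from cells labelled OLFM4-active, a name that goes with a CRISPR activation plasmid for OLFM4. Cells were sorted on a green fluorescent reporter before RNA was taken, and the study describes its OLFM4-wild and OLFM4-knockout cells as selected clones. The study's methods describe both activation and knockout plasmids in making its reporter cells, so how the OLFM4-wild and OLFM4-active libraries relate to the activation plasmid is not given in the sources used here.

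With 1 library per group there was no replicate, no test between conditions was possible, and every comparison is between libraries. OLFM4 itself had 214 counts in the wild library, 131 in the knockout library and 16 in the one labelled OLFM4-active, or 11.8, 2.55 and 0.670 CPM. CPM are depth-scaled counts, taken over library sizes corrected with TMM factors, which set the scale from the bulk of genes and not from the most abundant ones. OLFM4 was therefore lowest in the library whose label names activation, which is called the library labelled OLFM4-active, or the active-labelled library, throughout. The OLFM4-wild and OLFM4-knockout libraries are called wild and knockout. Total counts were 16309906, 58837147 and 23224216 in the same order. All 5 basal epithelial markers examined (KRT5, KRT14, TP63, KRT15 and ITGA6) passed the floor in each library, with summed levels of 17946, 39786 and 21388 CPM. Of 6 luminal markers 4 passed it in each library, with summed levels of 470, 429 and 310 CPM, while KLK3, a defining luminal gene, had 0 to 2 counts. Of 9 markers of stromal, muscle, endothelial, blood and neuroendocrine cells 4 to 6 passed it, with summed levels of 34.8, 28.9 and 23.9 CPM. The stromal marker COL1A1 made up most of each sum, at 30.2, 25.8 and 21.8 CPM, whereas COL3A1, also stromal, was at 0 in each library. The part of these markers in the results below was not tested.

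Transmembrane mucins are large glycoproteins anchored in the apical membrane of epithelial cells. Their extracellular domains carry dense O-linked sugars that lubricate and shield the surface, and several can be cut and shed. MUC1 and MUC16 also pass signals through short cytoplasmic tails, and the shed part of MUC16 is the antigen known as CA125. MUC4 is a large mucin that can bind the receptor ERBB2, and MUC15, MUC20 and MUC21 are smaller members found on various epithelia.

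In GENCODE release 44 on GRCh38, the build to which the authors aligned, the members lie on 5 chromosomes. MUC16 (ENSG00000181143.15) lies at chr19:8848844-9010390 on the minus strand, and its annotated exons cover 44165 bases. MUC1 (ENSG00000185499.16) lies at chr1:155185824-155192916 on the minus strand, with 2401 exonic bases. MUC15 (ENSG00000169550.12) lies at chr11:26559032-26572263 on the minus strand, with 3587 exonic bases. MUC4 (ENSG00000145113.21), at chr3:195746765-195811973 on the minus strand, and MUC20 (ENSG00000176945.16), at chr3:195720884-195741123 on the plus strand, are neighbours. MUC21 (ENSG00000204544.5) lies at chr6:30983718-30989903 on the plus strand.

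The 250 bases upstream of the start sites of MUC16 and MUC1 are shown because these are the members with the most counts, and their differences between libraries were of unequal size. Both are taken from RefSeq on GRCh38.p14 and are written in the direction of transcription on the minus strand, with motif matches in capitals. The MUC16 window lies at chr19:9010410-9010659, ends 1 base before the RefSeq start nearest to the GENCODE start, and has a GC content of 63.6%. The MUC1 window lies at chr1:155192916-155193165 and has a GC content of 66.0%. The median over 35116 windows of this length was 58.0%.
MUC16: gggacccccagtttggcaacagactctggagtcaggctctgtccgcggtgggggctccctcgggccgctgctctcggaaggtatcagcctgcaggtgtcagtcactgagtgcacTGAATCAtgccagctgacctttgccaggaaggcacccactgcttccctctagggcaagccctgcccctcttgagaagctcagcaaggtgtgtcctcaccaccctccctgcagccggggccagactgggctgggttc
MUC1: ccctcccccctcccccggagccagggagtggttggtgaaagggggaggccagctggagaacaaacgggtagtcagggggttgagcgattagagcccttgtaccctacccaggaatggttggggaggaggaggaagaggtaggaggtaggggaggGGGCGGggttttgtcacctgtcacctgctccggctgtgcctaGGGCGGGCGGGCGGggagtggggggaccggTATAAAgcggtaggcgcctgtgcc

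Motifs were searched on both strands. The MUC16 window holds 1 match to the AP-1 motif TGANTCA, from -136 to -130 relative to the start, and such a match occurs in 6.57% of all windows. The MUC1 window holds a TATA box (TATAAA) from -24 to -19, found in 10.7% of windows, and 4 matches to the GC box (GGGCGG), found in 42.6% of windows. The GC boxes start at -96, -54, -50 and -46, and the last 3 overlap. Neither window holds the E-box CACGTG, present in 6.34% of windows, or the STAT motif TTCNNNGAA, present in 6.57%. These matches describe letters only, and binding of a factor was not measured. MUC16 has a second RefSeq start, 55361 bases upstream of the GENCODE start, and MUC1 a second one close by, whose windows are not shown. The window of the second MUC16 start holds a GC box match from -47 to -42 and no AP-1 match. MUC15, MUC20 and MUC21 have no window in the table used.

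MUC16 was the most counted member in the wild library and was scarce in the other two. It had 808 counts in the wild library, 90 in the knockout library and 84 in the active-labelled one, which correspond to 44.5 (95% interval 41.5 to 47.6), 1.75 (1.41 to 2.16) and 3.52 (2.80 to 4.35) CPM. The intervals are exact Clopper-Pearson intervals that cover counting error only and not spread between cultures or libraries. Even for counting error they may be too narrow, since amplified reads are not independent molecules. The wild level of MUC16 thus stood apart from both others, and the library labelled OLFM4-active lay above the knockout library without overlap of the counting intervals. The wild and knockout values of MUC16 entered its choice, so these differences are a description.

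MUC1, the best studied member and widely expressed in glandular epithelia, was the only one well above 10 CPM in each library. It had 531, 819 and 387 counts in the wild, knockout and active-labelled libraries, or 29.2 (26.8 to 31.8), 16.0 (14.9 to 17.1) and 16.2 (14.6 to 17.9) CPM. Its raw count was highest in the knockout library, the deepest one, whereas its scaled level was highest in the wild library and about equal in the other two. MUC15 had 178, 76 and 27 counts, or 9.80 (8.41 to 11.3), 1.48 (1.17 to 1.85) and 1.13 (0.745 to 1.64) CPM. As for MUC16, the wild library was high and the other two were low, and here the intervals of the low libraries overlapped.

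The remaining members were at or near the limit of detection. MUC20 had 1, 10 and 3 counts, so it passed the floor in the knockout library alone. MUC21 had 1, 0 and 1 counts and MUC4 had 0 in each library. A floor of 3 counts corresponds to 0.165 CPM in the wild, 0.0584 CPM in the knockout and 0.126 CPM in the active-labelled library, so MUC4 and MUC21 were not detectable above these levels. In bulk RNA, fewer cells that express a mucin and less mucin RNA per cell cannot be told apart.

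**Figure D1:**
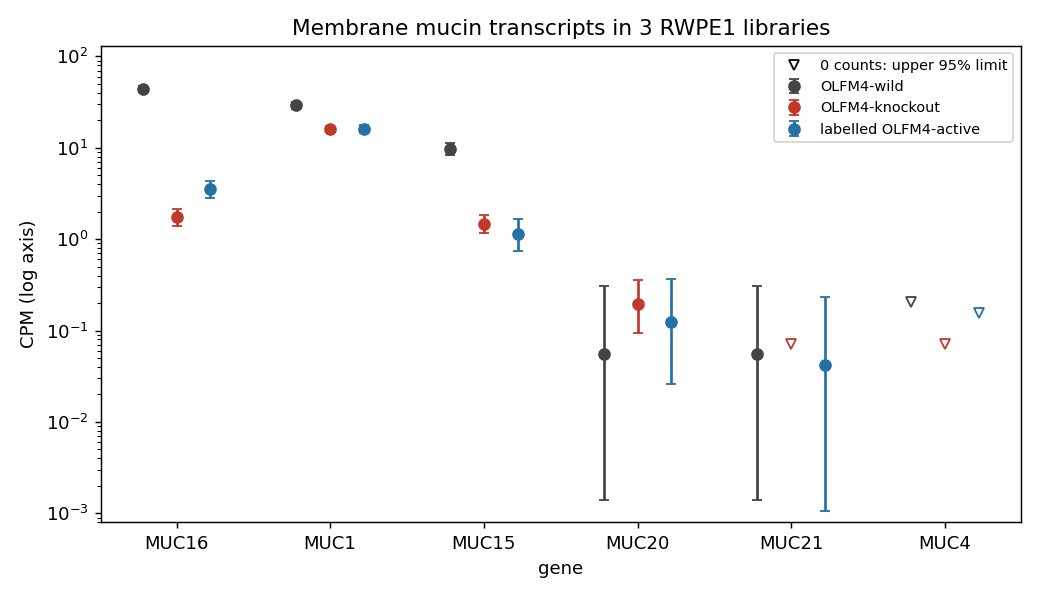
Levels of the 6 membrane mucins (x axis) in CPM on a log axis (y axis) in the 3 libraries, 1 point per library with its exact 95% counting interval, and open triangles for the upper limit where the count was 0. MUC16 and MUC15 are high in the wild library and low in both others, MUC1 lies between 16.0 and 29.2 CPM, and MUC20, MUC21 and MUC4 lie at or near the floor.

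Levels of different members can be compared only per length, since MUC16 has far more exonic bases than the rest. Per kilobase of exon, MUC1 had 12.2, 6.64 and 6.75 CPM in the wild, knockout and active-labelled libraries. MUC15 had 2.73, 0.413 and 0.315 CPM per kilobase, and MUC16 had 1.01, 0.0397 and 0.0796. On this scale the order was MUC1, then MUC15, then MUC16 in each library, and neighbours in this order did not overlap in their counting intervals. Of 16582 protein-coding genes with a count, 83.4%, 67.9% and 69.0% lay below MUC1 in CPM per kilobase in the 3 libraries. For MUC15 these shares were 47.7%, 27.5% and 25.7%, and for MUC16 they were 32.9%, 14.2% and 17.5%. In each library MUC1 therefore sat in the upper part of the range of protein-coding genes and MUC16 in the lower part. These levels per length count every annotated exonic base, also for transcripts that use only some exons.

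The first comparison of the study's design set knockout against wild cells, to ask how expression differs when OLFM4 is disrupted. MUC16 was 25.2-fold lower in the knockout than in the wild library, a log2 fold change of -4.66 (95% counting interval -5.00 to -4.35). Since MUC16 was chosen for this difference, the value is a description. MUC15 was 6.59-fold lower, with a log2 fold change of -2.72 (-3.13 to -2.33). MUC1 was 1.83-fold lower, with a log2 fold change of -0.87 (-1.03 to -0.71). Log2 fold changes are taken on counts with an offset of 0.5 per library, scaled by TMM. A gene was called when its interval lay wholly beyond 1 on the log2 scale in either direction. By this rule 2 of the 6 members were lower, MUC16 and MUC15, against 4.55% of the 32894 genes with a count in either library, and 0 were higher, against 1.59%. Nothing is read from this count, as the same contrast entered the choice of members.

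Among 16600 genes that averaged 1 CPM or more over the 3 libraries, whose median log2 fold change was 0.10, 13 lay below MUC16, 104 below MUC15 and 1570 below MUC1 in this comparison. The direction of the 3 members did not depend on the scaling. Library totals in place of TMM lowered every log2 fold change of this comparison by 0.35, which took MUC16 to -5.01 and MUC1 to -1.23 (-1.39 to -1.07), so that MUC1 was called only with totals. MUC20 had 1.31, with an interval from -0.99 to 7.26, so no difference was detectable at its 1 and 10 counts. For MUC21 and MUC4, both libraries were at or under the floor and no fold is given.

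The second comparison set the library labelled OLFM4-active against the same wild library, so the 2 comparisons are not independent. MUC16 was 12.6-fold lower, with a log2 fold change of -3.65 (-4.00 to -3.34). MUC15 was 8.53-fold lower, with a log2 fold change of -3.09 (-3.76 to -2.53). MUC1 was 1.80-fold lower, with a log2 fold change of -0.85 (-1.04 to -0.66). Here 2 of the 6 members were called lower, MUC16 and MUC15, where 2.87% of 31899 genes were, and 0 were called higher, where 1.03% were. Nothing is read from this count either, as the same wild library entered the choice of MUC16. The median log2 fold change over genes averaging at least 1 CPM was 0.05 in this comparison, and 48 genes lay below MUC16, 79 below MUC15 and 1459 below MUC1. With library totals, MUC16 had -3.77 and MUC1 -0.97, a shift of -0.11. MUC20, with 1 and 3 counts, and MUC21, with 1 and 1, did not exceed the floor in either library.

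Comparing the knockout library with the one labelled OLFM4-active leaves out the wild library, but the knockout value of MUC16 entered its choice. The MUC16 value here is therefore a description as well. MUC16 was lower in the knockout library, with a log2 fold change of -1.004 (-1.45 to -0.56) and -1.24 with library totals. MUC15 had 0.37 (-0.26 to 1.08), so it was not distinguishable between these libraries. MUC1 had -0.02 (-0.20 to 0.16) with TMM, but -0.26 (-0.44 to -0.08) with totals, so whether it differed depends on the scaling. No member was called in this comparison, where 1.73% of 32537 genes were called lower and 0.596% higher. Of the 16600 genes, 550 lay below MUC16, 6875 below MUC1 and 12105 below MUC15.

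**Figure D2:**
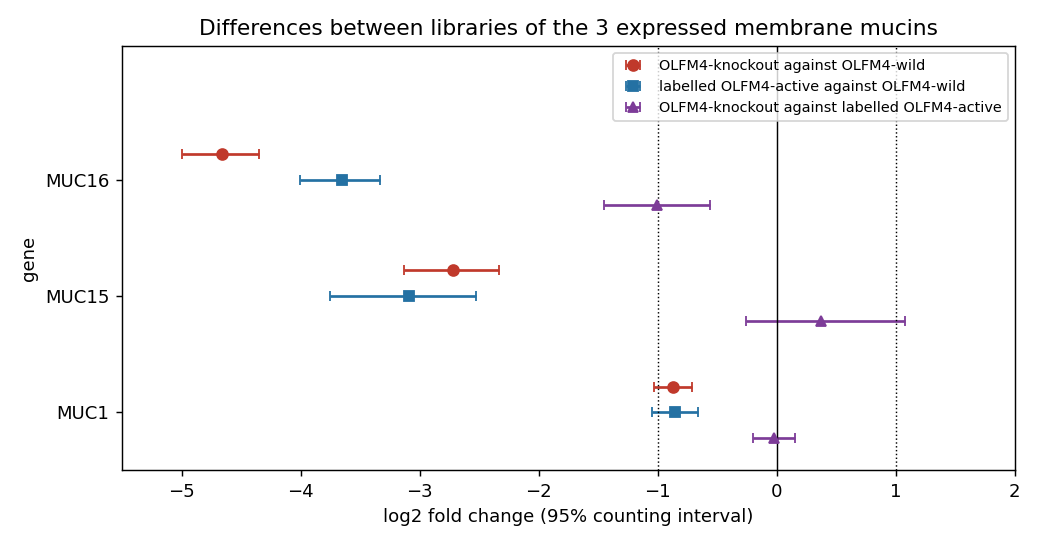
Log2 fold changes (x axis) of MUC16, MUC15 and MUC1 (y axis) in the 3 comparisons between libraries, with 95% counting intervals as bars and dotted lines at -1 and 1, the limits of a call. MUC16 and MUC15 lie wholly below -1 against wild in both other libraries, MUC1 lies between -0.87 and -0.85 there, and between the knockout and the active-labelled library only the interval of MUC16 leaves out 0.

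The make-up of the mucin counts is another view of the same values. It needs no scaling between libraries, but the difference for which MUC16 was chosen enters each share, so the shares are a description and no further support. The 6 members together had 1519, 995 and 502 counts, or 83.6, 19.4 and 21.0 CPM, in the wild, knockout and active-labelled libraries. MUC16 took 53.2% (50.6 to 55.7) of these counts in the wild library, 9.05% (7.34 to 11.001) in the knockout library and 16.7% (13.6 to 20.3) in the active-labelled library. MUC1 took 34.96% (32.6 to 37.4), 82.3% (79.8 to 84.6) and 77.1% (73.2 to 80.7). MUC15 took 11.7% (10.1 to 13.4), 7.64% (6.06 to 9.47) and 5.38% (3.57 to 7.73). Most mucin counts thus came from MUC16 in the wild library and from MUC1 in both others. These are raw counts, not corrected for exon length. Per kilobase of exon, MUC1 stood above MUC16 in the wild library too, at 12.2 against 1.01 CPM.

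**Figure D3:**
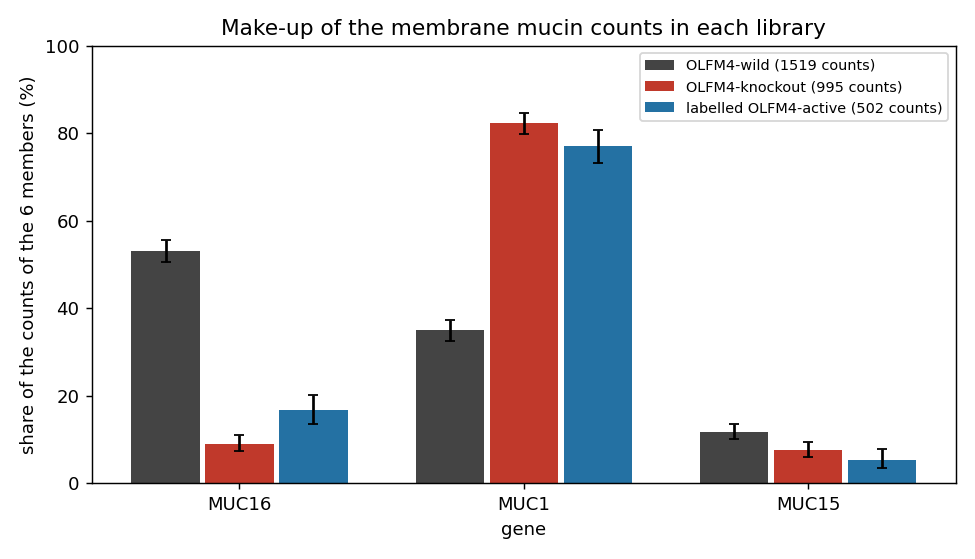
Share of the counts of the 6 membrane mucins (y axis, %) taken by MUC16, MUC1 and MUC15 (x axis) in each library, with exact 95% binomial intervals as error bars. MUC16 holds 53.2% in the wild library, and MUC1 holds 82.3% and 77.1% in the knockout and active-labelled libraries. Shares are of raw counts and are not corrected for exon length.

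Ratios between members set their differences side by side. Those with MUC16 are a description in every comparison, since its wild and knockout values entered its choice. There were 152 MUC16 counts per 100 MUC1 counts in the wild library, 10.99 in the knockout library and 21.7 in the active-labelled library. The log2 ratio of these ratios was -3.79 (-4.16 to -3.43) for knockout against wild and -2.81 (-3.20 to -2.43) for the library labelled OLFM4-active against wild. MUC15 had 33.5, 9.28 and 6.98 counts per 100 MUC1 counts, with log2 ratios of ratios of -1.85 (-2.29 to -1.42) and -2.26 (-2.93 to -1.64). MUC16 per 100 MUC15 counts came to 454, 118 and 311. That ratio was lower in the knockout than in the wild library, at -1.94 (-2.46 to -1.42), and than in the library labelled OLFM4-active, at -1.39 (-2.22 to -0.59). Between the library labelled OLFM4-active and the wild library, its difference of -0.54 (-1.23 to 0.18) included 0.

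Annotated genes that overlap the members limit some counts. MUC20 shares 1851 exonic bases with the long noncoding gene MUC20-OT1 on the same strand, which strand-specific counting cannot separate, and it has a pseudogene, MUC20P1, with 1, 0 and 1 counts. MUC20-OT1 had 305, 661 and 286 counts, or 16.8, 12.9 and 12.0 CPM, with log2 fold changes of -0.38 (-0.58 to -0.18) and -0.49 (-0.73 to -0.25) against wild in the knockout and active-labelled libraries. With totals in place of TMM these remain below 0. The low counts of MUC20 are therefore uncertain. MUC1 shares 48 exonic bases on the same strand with ENSG00000273088, which had 934, 2956 and 1073 counts. MUC15 shares 175 exonic bases with ANO3 on the opposite strand, which stranded counting keeps apart, and ANO3 had 13, 3 and 4 counts. Reads from tandem repeats within mucin exons can map to several places and are then left out of uniquely mapped counts, and the size of this loss was not tested.

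Other surface and secreted mucins were examined from lists that were chosen with earlier results of these data known. Over all genes, 4.55% were called lower and 1.59% higher in knockout against wild, and 2.87% and 1.03% in the active-labelled library against wild. Of 11 other membrane mucins and mucin-like proteins, 10 were found in the count table. PARM1, a mucin-like membrane protein, was the 1 called lower in knockout against wild, on 10, 4 and 3 counts and with a log2 fold change of -2.72 (-4.95 to -1.03), and 0 were called higher. In the library labelled OLFM4-active, 0 were called either way. The 3 averaging at least 1 CPM were CD164, a small sialomucin, PODXL and PODXL2, both of the podocalyxin family, and their medians were 0.00 and 0.18 on the log2 scale in the 2 comparisons, beside 0.10 and 0.05 over all genes. PODXL, at 40.6, 23.0 and 24.4 CPM, had log2 fold changes of -0.82 (-0.95 to -0.69) and -0.73 (-0.89 to -0.58), values near those of MUC1. CD164, at 116, 116 and 148 CPM, had 0.00 (-0.07 to 0.08) and 0.35 (0.28 to 0.43). PODXL2, on 63, 403 and 94 counts, had 1.17 (0.79 to 1.59) and 0.18 (-0.29 to 0.67), the opposite direction to PODXL in knockout against wild.

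Of 9 secreted, gel-forming or related mucins, MUC6 and MUC19 were called lower in both comparisons, beside 4.55% and 2.87% of all genes, and 0 were called higher. MUC6, a gel-forming mucin best known from stomach glands, had 20, 8 and 1 counts, with log2 fold changes of -2.77 (-4.21 to -1.58) and -4.17 (-10.09 to -2.07). MUC19, also gel-forming, had 22, 7 and 0 counts. Its log2 fold change was -3.08 (-4.62 to -1.87) in the knockout library, and it was at least 9.64-fold lower in the active-labelled library, against a floor of 3 counts in that library. Both were scarce, near 1 CPM in the wild library, so the 2 lower calls rest on few counts.

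Enzymes that build mucin-type sugars were examined in 2 lists. The GALNT enzymes attach the first sugar, N-acetylgalactosamine, to serine and threonine. Of 18 GALNT genes, GALNT13 alone was called lower in both comparisons, beside 4.55% and 2.87% of all genes, on 13, 1 and 1 counts, with log2 fold changes of -4.67 (-10.61 to -2.46) and -3.56 (-9.50 to -1.36), and 0 were called higher. The 10 averaging at least 1 CPM had medians of 0.33 and 0.17, and with library totals the median against wild became -0.02 for the knockout library and 0.05 for the one labelled OLFM4-active, so the direction in the knockout library depends on the scaling. Of 13 enzymes of core synthesis, extension and sialylation, 0 were called in either direction in either comparison. The 9 of them averaging at least 1 CPM had medians of 0.06 and 0.04, which turned to -0.29 and -0.07 with totals.

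Binding partners and sheddases of the mucins were well expressed, and all 16 averaged at least 1 CPM. Mesothelin, MSLN, a surface protein that binds MUC16, was the 1 gene of this list called higher in knockout against wild. Over all genes 1.59% were called higher and 4.55% lower, and of this list 0 were called lower. MSLN had 361, 5854 and 857 counts, or 19.9, 114 and 35.9 CPM. The knockout library was 5.73-fold above the wild library, a log2 fold change of 2.52 (2.37 to 2.68), and the library labelled OLFM4-active had 0.85 (0.67 to 1.03). MSLN was also higher in the knockout than in the active-labelled library, by 1.67 (1.57 to 1.77). Per kilobase of exon, MSLN had 7.68, 44.1 and 13.9 CPM, above MUC16 in each of the 3 libraries.

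In the library labelled OLFM4-active against wild, 1 partner was called lower and 0 higher, where 2.87% and 1.03% of all genes were. The former was AGR2, a protein disulfide isomerase needed for folding of gut mucins. It had 99, 138 and 19 counts, with log2 fold changes of -2.75 (-3.57 to -2.06) in the active-labelled library and -1.02 (-1.40 to -0.63) in the knockout library, each against wild. In knockout against the active-labelled library AGR2 had 1.73 (1.06 to 2.53). AGR2 and MSLN were the 2 partners called higher in that comparison, where 0.596% of all genes were. The medians of the 16 partners were -0.09 and 0.02, and -0.44 and -0.09 with totals. The sheddases ADAM17, ADAM9 and MMP14 had log2 fold changes of -0.11, -0.22 and -0.11 in the knockout library and 0.36, -0.08 and -0.46 in the active-labelled library. The receptors EGFR, ERBB2 and ERBB3, which can associate with MUC1, had -0.26, 0.08 and -0.58, and 0.18, -0.25 and -0.63. None of these 6 reached a call.

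**Figure D4:**
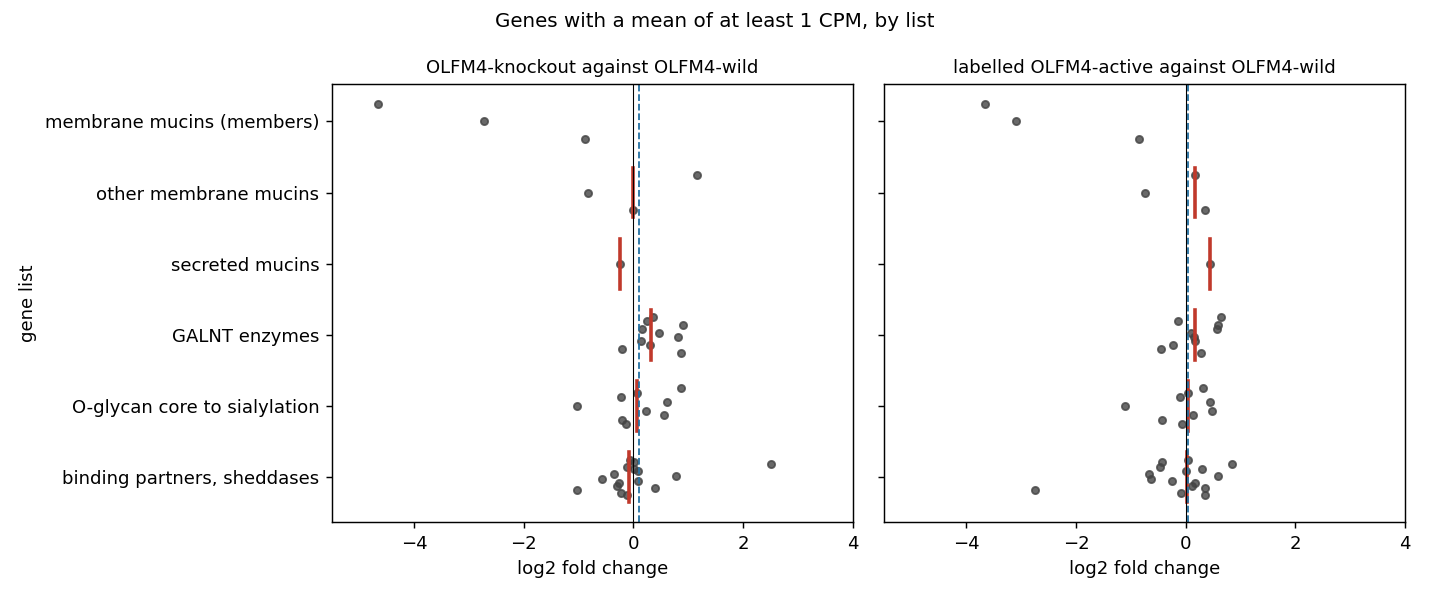
Log2 fold changes (x axis) against wild of genes averaging at least 1 CPM in each list (y axis), with the knockout library on the left and the library labelled OLFM4-active on the right. Each point is a gene, red bars are list medians (none is drawn for the members) and the dashed line is the median of all genes. The 3 members lie at -0.85 or lower in both panels, and the medians of the mucin enzymes and partners lie between -0.09 and 0.33.

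Genes whose pattern over the 3 libraries was most like that of MUC16 were ranked by the Euclidean distance in the 2 log2 fold changes against wild, among 10930 protein-coding genes averaging at least 5 CPM. The ranking describes likeness only and uses 3 libraries, and 4 genes lay within a distance of 1. DSC1, the desmosomal cadherin desmocollin 1, was nearest at 0.399, with 517, 70 and 44 counts and log2 fold changes of -4.37 and -3.93. PI3, the protease inhibitor elafin, followed at 0.496, with 1794, 279 and 206 counts and log2 fold changes of -4.18 and -3.51. Next were IFI27, an interferon-induced gene, at 0.700 with 365, 53 and 25 counts, and HOPX, which encodes an atypical homeodomain protein, at 0.972 with 266, 58 and 28. RSAD2, which encodes the antiviral protein viperin, was the fifth at 1.19, with 302, 76 and 27 counts. Since the ranking uses both log2 fold changes, a highest level in the wild library is fixed by the choice of these genes.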

How the data were processed

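Total RNA depleted of ribosomal RNA was sequenced as stranded read pairs in 3 RWPE1 libraries, 1 per group. The authors trimmed reads with cutadapt per the labels, aligned them to GRCh38 with HISAT2 and, with featureCounts, counted the pairs that mapped uniquely and in reverse orientation, and the deposited table holds these counts per gene without normalization. The annotation release behind the counts is not given in the sources used here. Of 58037 identifiers, 56993 are in GENCODE release 44, which gave names, positions and exonic bases.

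Library sizes were scaled with TMM (edgeR 4.0.16, factors 1.11, 0.872 and 1.03 for OLFM4-wild, OLFM4-knockout and OLFM4-active), and log2 fold changes follow voom (limma 3.58.1, R 4.3.3) with an offset of 0.5 counts. Intervals at 95% are exact Clopper-Pearson intervals, conditional on the sum of both counts for fold changes. The log2 ratios of ratios are instead conditional maximum-likelihood odds ratios with exact conditional intervals, from the counts of both genes in both libraries. Python 3.11.15, numpy 2.4.6, pandas 2.3.3, scipy 1.17.1 and matplotlib 3.10.9 were used, and the procedure was tested on simulated data. Those data were Poisson counts around the observed means with known changes. They hold counting error only, so they cannot show how calls fare under spread between cultures or libraries. Genes counted at least once in either library were compared, and a gene was called when its interval lay beyond 1 or -1 on the log2 scale. Precision is set by depth, from 16309906 to 58837147 counts, where 3 counts are 0.165 to 0.0584 CPM.

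The members and the lists were chosen with earlier results of these data known. The text names the 6 members, OLFM4, the called genes of each list with the largest log2 fold change (at most 6 per list and comparison), the 5 genes nearest to MUC16, and genes that overlap or copy a member. CD164, PODXL, PODXL2, the sheddases, the receptors, the marker genes, KRT4, KRT13 and EMP1 are named besides, after their values were seen. So are TGM1, IVL, EVPL and PPL. Alternatives were library totals, DESeq2 1.42.0 size factors or upper quartile factors, an offset of 5 counts, leaving the 10 most abundant genes out of library sizes, thinning to the smallest library, calls without the interval, and a filter at a mean of 1 CPM.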

Additional observations from a re-analysis of the deposited data

How the results depend on the processing

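No paired analysis was possible because each group has 1 library, and for the same reason no library could be left out. No call of a member reversed under any alternative run. Over the alternatives, the log2 fold change against wild ranged from -5.01 to -4.60 (knockout) and from -3.77 to -3.59 (labelled OLFM4-active) for MUC16, from -3.07 to -2.67 and -3.25 to -2.91 for MUC15, and from -1.23 to -0.86 and -0.97 to -0.81 for MUC1. MUC16 between the knockout and the active-labelled library ranged from -1.24 to -0.99. In knockout against wild, 3 members were lower with library totals (MUC1 added) and 3 without the interval (MUC21 added, on 1 and 0 counts), and 1 was higher without the interval (MUC20). Between the knockout library and the one labelled OLFM4-active, 2 members were lower without the interval.

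Counts of called genes in the lists moved as follows. In knockout against wild, lower calls among other membrane mucins were 2 with totals, 0 after thinning and 0 with the filter at 1 CPM, and 1 was higher without the interval. Lower secreted mucins were 1 after thinning, 4 without the interval and 0 with the filter. Lower GALNT genes were 4 without the interval and 0 with the filter. Lower O-glycan enzymes were 1 with totals and 3 without the interval, lower partners were 1 without the interval, and higher mucosal squamous genes were 1 with totals. In the library labelled OLFM4-active against wild, dropping the interval gave 1 lower and 2 higher other membrane mucins, 1 higher secreted mucin, 3 lower GALNT genes and 3 lower O-glycan enzymes. Thinning gave 0 lower GALNT genes, and the filter gave 0 lower secreted mucins and 0 lower GALNT genes. Calls that left with thinning or the filter were of genes with few counts. Nothing is read from these list counts, since lower calls over all genes also rose without the interval and fell with the filter.

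Over all genes, lower calls in knockout against wild went from 1498 to 2663 with totals, 801 after thinning, 7970 without the interval and 657 with the filter, and higher calls from 522 to 189 with totals and 3338 without the interval. The share of higher among all calls was 25.8% with TMM and 6.63% with totals. For the library labelled OLFM4-active against wild, lower calls went from 917 to 7134 without the interval and 530 with the filter, higher calls from 329 to 4707 without the interval, and the higher share was 26.4% with TMM and 17.3% with totals. Between the knockout library and the one labelled OLFM4-active, lower calls went from 563 to 1015 with totals, 221 after thinning, 5901 without the interval and 203 with the filter, and higher calls from 194 to 96 with totals and 4017 without the interval. The higher share there was 25.6% with TMM, 8.64% with totals and 15.3% with upper quartile factors. The cause of these moves was not tested. Main calls and calls without the interval are out of 32894, 31899 and 32537 genes in the 3 comparisons, in the order given here.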

Other observations

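Genes of the mucosal squamous programme, which line surfaces such as the oesophagus together with transmembrane mucins, were examined in the same libraries. Of 21 such genes, 19 had a count in either library of each comparison with wild. Of these, 9 were called lower and 3 higher in knockout against wild. Over all genes with a count, 4.55% and 1.59% were called in those directions. In the library labelled OLFM4-active, 8 were called lower and 1 higher, where 2.87% and 1.03% of all genes were. IVL had -0.25 and -0.21 in the 2 comparisons, EVPL -0.05 and -0.17, and PPL 0.32 and 0.37, none of them a call. With library totals PPL had -0.03 and 0.26. No median is given, since several of these genes reach 1 CPM on average only through the wild library. Both comparisons share the wild library, and the list was chosen with earlier results known.

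SPRR3, a small proline-rich protein of the cornified envelope, had 97, 3 and 1 counts in the wild, knockout and active-labelled libraries, with log2 fold changes of -6.30 (-8.82 to -4.92) and -6.42 (-12.31 to -4.48) against wild. CRNN, which encodes cornulin, had 93, 3 and 0 counts, with -6.24 (-8.76 to -4.86) in the knockout library, and was at least 40.8-fold lower in the library labelled OLFM4-active. SPRR2A had 123, 14 and 15 counts and log2 fold changes of -4.59 and -3.39. SPRR1A had 550, 382 and 196 counts and log2 fold changes of -2.02 (-2.22 to -1.83) and -1.88 (-2.13 to -1.65). CNFN, which encodes cornifelin, had 64, 25 and 17 counts and values of -2.84 and -2.28. CEACAM1, an adhesion molecule, had 30, 4 and 11 counts, with -4.26 (-6.37 to -2.90), a call, in the knockout library and -1.80 (-2.99 to -0.80) in the library labelled OLFM4-active. In knockout against the active-labelled library CEACAM1 had -2.46 (-4.67 to -0.81), on 4 and 11 counts and not a call. RHCG, an ammonium transporter, had 62, 55 and 20 counts and was called lower in both comparisons, at -1.67 (-2.22 to -1.12) and -2.003 (-2.83 to -1.28). TGM3, a transglutaminase, had 34, 43 and 8 counts, with -1.16 (-1.84 to -0.47) in the knockout library and -2.42 (-3.80 to -1.34), a call, in the library labelled OLFM4-active. In knockout against the active-labelled library TGM3 had 1.25 (0.22 to 2.62) with TMM, not a call, and 1.01 with library totals.

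The genes called higher against wild in the knockout library were KRT4 (1.92) and KRT13 (1.30), the keratin pair of mucosal epithelia, and EMP1 (1.31), a membrane protein. In the library labelled OLFM4-active EMP1 (1.51) was called higher against wild. KRT4 and KRT13 had log2 fold changes of -0.74 (-0.80 to -0.68) and -0.71 (-0.78 to -0.65) in the latter. With library totals KRT4 had 1.56 in the knockout library, whereas KRT13 and EMP1 had 0.95 and 0.96. In knockout against the active-labelled library 3 genes of the list were called higher and 0 lower, where 0.596% and 1.73% of all genes were. They were KRT4 at 2.66 (2.61 to 2.71), KRT13 at 2.01 (1.96 to 2.06) and TGM1, a transglutaminase, at 1.21 (1.16 to 1.27). With library totals TGM1 had 0.98 there. Against wild, TGM1 had 1.04 (0.98 to 1.09) in the knockout library, not a call.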
